A study of Mus musculus with 14 samples.

Results

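The 42 genes described here act in ribosome biogenesis, the assembly line in the nucleolus and cytoplasm that makes ribosomes. They were chosen by name from a list of nucleolar factors, by a rule that uses no measured value but was written with earlier results of these data known, and all 42 were found among the 35275 genes of the table. Their levels are given as FPKM, the number of sequenced fragments scaled to the length of the gene and the size of the library. In ribosome biogenesis, RNA polymerase I transcribes the ribosomal RNA precursor, small nucleolar ribonucleoproteins (snoRNPs) guide its methylation and pseudouridylation, and assembly factors fold, cleave and export the small and the large subunit. Many of these genes are known targets of Myc, a transcription factor that drives growth, and the levels of Myc are therefore given beside them.

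Messenger RNA was measured in 14 samples of mouse ovarian cancer cells. KMF cells were derived from C57Bl6 ID8 cells by passage in mice. FAK KO cells are the single clone KT13 of KMF cells, in which Ptk2, the gene for the tyrosine kinase FAK, was inactivated by CRISPR/Cas9. The other 3 lines were made from this clone and share its edited Ptk2 alleles. They stably express, from viral vectors, GFP-FAK (FAK-WT), kinase-inactive GFP-FAK (FAK-R454), or a β-catenin that lacks its GSK3β phosphorylation sites (β-catenin ΔGSK). The CMV promoter drives both GFP-FAK forms. All cells were grown without anchorage as tumorspheres for 5 days, with 3 samples of each line and 2 of FAK-R454. Each library gave 25390558 to 35289859 fragments assigned to genes. Ptk2 read 24.8, 24.2 and 23.9 FPKM in KMF, 20.5, 17.6 and 18.9 in FAK KO, 42.3, 42.5 and 45.4 in FAK-WT, 59.2 and 65.5 in FAK-R454 samples and 15.4, 15.9 and 15.1 in the β-catenin ΔGSK samples. Fragments of the edited alleles and of the re-expressed GFP-FAK were counted together, so this value does not check the knockout. Krt8, Krt18, Krt19, Wt1 and Msln, markers of epithelium and mesothelium, summed with the 4 other markers of the list to between 1564 and 1802 FPKM in FAK-WT samples and 1065 to 1391 in those of the other lines, with Krt8, Krt18, Krt19 and Msln called higher in FAK-WT against both FAK KO and FAK-R454 cells, and those 4, Krt7, Pax8, Epcam and Cdh1, each stayed at or below 0.825 FPKM. Against FAK KO, Wt1 (1.21) and Krt19 (0.55) were called higher and Krt8 (-0.81) and Msln (-0.55) lower in the β-catenin ΔGSK line, as log2 fold changes, Krt18 (0.64) was called higher and Krt19 (-0.22) lower in KMF, and Wt1 (0.22) higher in FAK-R454 samples. The 10 markers of leukocytes, endothelium, erythroid cells and fibroblasts summed to 7.78 to 8.91 FPKM in FAK KO, 14.8 to 16.5 in KMF, 27.0 to 33.6 in FAK-WT, 23.3 to 25.2 in FAK-R454 samples and 2.26 to 3.53 in the β-catenin ΔGSK samples, and their part in the results below was not tested. Most of that sum was Cd68, Col1a1 and Pdgfra, while Cd3e was at 0 in every sample and Ptprc, Adgre1 and Cdh5 were at most 0.0432 FPKM. In bulk samples, fewer cells that express a gene and less RNA of it per cell cannot be told apart.

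Sequences just around the start sites are shown because CACGTG, the E-box bound by Myc and Max, is the letter string by which these promoters can be compared. RefSeq promoters (build GRCm38.p6, 250 bases before and 50 after the start) were matched for 36 of the 42 members. CACGTG reads the same on both strands, and it was found in at least 1 promoter of 8 of these 36 genes (22.2%). It was found in 8.09% of all 27025 genes with a promoter in the table, and in 12% of the 8497 of them with a mean FPKM above 1. The 8 genes were Mybbp1a, Nop2, Pes1, Wdr43, Rrn3, Tsr1, Ltv1 and Utp20. None of the 7 snoRNP genes that were matched held the letters in this window. The 4 most abundant members with the motif and, of the matched members, the 2 most abundant without it are given below, 5′ to 3′ on the strand of the gene, with CACGTG in capitals. Where the motif lay after the start, only its surroundings are shown, and otherwise the 250 bases before the start.
Mybbp1a (chr11:72441355-72441376, plus strand, motif beginning 40 bases after the start): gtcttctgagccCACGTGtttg
Nop2 (chr6:125131633-125131882, plus strand, motif beginning 60 bases before the start): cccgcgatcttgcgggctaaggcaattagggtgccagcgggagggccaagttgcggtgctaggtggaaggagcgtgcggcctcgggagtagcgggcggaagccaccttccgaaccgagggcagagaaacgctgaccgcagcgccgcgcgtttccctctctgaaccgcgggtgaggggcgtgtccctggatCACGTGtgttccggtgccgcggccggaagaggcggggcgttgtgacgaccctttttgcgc
Pes1 (chr11:3963965-3963994, plus strand, motif beginning 2 bases after the start): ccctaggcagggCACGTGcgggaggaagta
Wdr43 (chr17:71616220-71616249, plus strand, motif beginning 17 bases after the start): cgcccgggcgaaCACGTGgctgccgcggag
Nhp2 (chr11:51619523-51619772, plus strand, no motif): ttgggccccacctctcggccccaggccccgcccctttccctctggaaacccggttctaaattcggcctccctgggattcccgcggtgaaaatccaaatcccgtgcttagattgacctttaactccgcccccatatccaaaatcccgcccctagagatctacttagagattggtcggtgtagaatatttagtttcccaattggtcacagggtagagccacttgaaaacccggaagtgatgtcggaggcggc
Ncl (chr1:86359456-86359705, minus strand, no motif): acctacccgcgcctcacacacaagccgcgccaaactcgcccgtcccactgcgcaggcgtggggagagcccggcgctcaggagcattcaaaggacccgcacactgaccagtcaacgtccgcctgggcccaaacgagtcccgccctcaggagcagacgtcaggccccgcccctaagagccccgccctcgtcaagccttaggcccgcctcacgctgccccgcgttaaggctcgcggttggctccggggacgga
These 6 genes do not move together in what follows. In β-catenin ΔGSK against FAK KO cells Nhp2 rose by 0.63, Mybbp1a by 0.31 and Nop2 by 0.23 on the log2 scale, Pes1 changed by -0.31, and Wdr43 and Ncl were not called. Among the 8 members with the motif, 2 were called higher and 1 lower in β-catenin ΔGSK than in FAK KO cells, and among the 28 members without it 8 were called higher and 3 lower, where 23.7% of all genes were called higher and 34.4% lower. Those called higher among the 8 and the 28 were 1 and 11 in KMF, 0 and 7 in FAK-WT, and 0 and 0 in FAK-R454 cells, with backgrounds of 23.1%, 15.6% and 9.78%. Those called lower were 1 and 4, 0 and 3, and 0 and 2, with backgrounds of 28.7%, 25.2% and 9.89%.

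All members were expressed in every line. Averaged over all samples, their levels ran from 2.52 FPKM for Wdr12 to 217 FPKM for Npm1, with a median of 23.1 FPKM. The differences between lines were small. The highest line mean of a member was between 1.09 times (Ftsj3, a methyltransferase of large subunit assembly) and 1.80 times (Nhp2, a core protein of the H/ACA snoRNPs) its lowest, with a median of 1.31 times. Within a line, the coefficient of variation of a member had a median of 4.90%. Summed over the 42 genes, FPKM was 1387 ± 33.1 in FAK KO (SD, n = 3), 1392 ± 61.1 in KMF (SD, n = 3), 1435 ± 75.4 in FAK-WT (SD, n = 3), 1380 ± 26.2 in FAK-R454 samples (SD, n = 2) and 1625 ± 37.0 in β-catenin ΔGSK cells (SD, n = 3). The lowest sum of a β-catenin ΔGSK sample, 1592 FPKM, lay above the highest sum in every other line, and the other 4 lines overlapped. Much of the rise over FAK KO lay in 3 abundant members, Npm1 (means of 277.6 and 212.4 FPKM), Nhp2 (173.4 and 112) and Fbl (131.2 and 92.7).

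**Figure D1:**
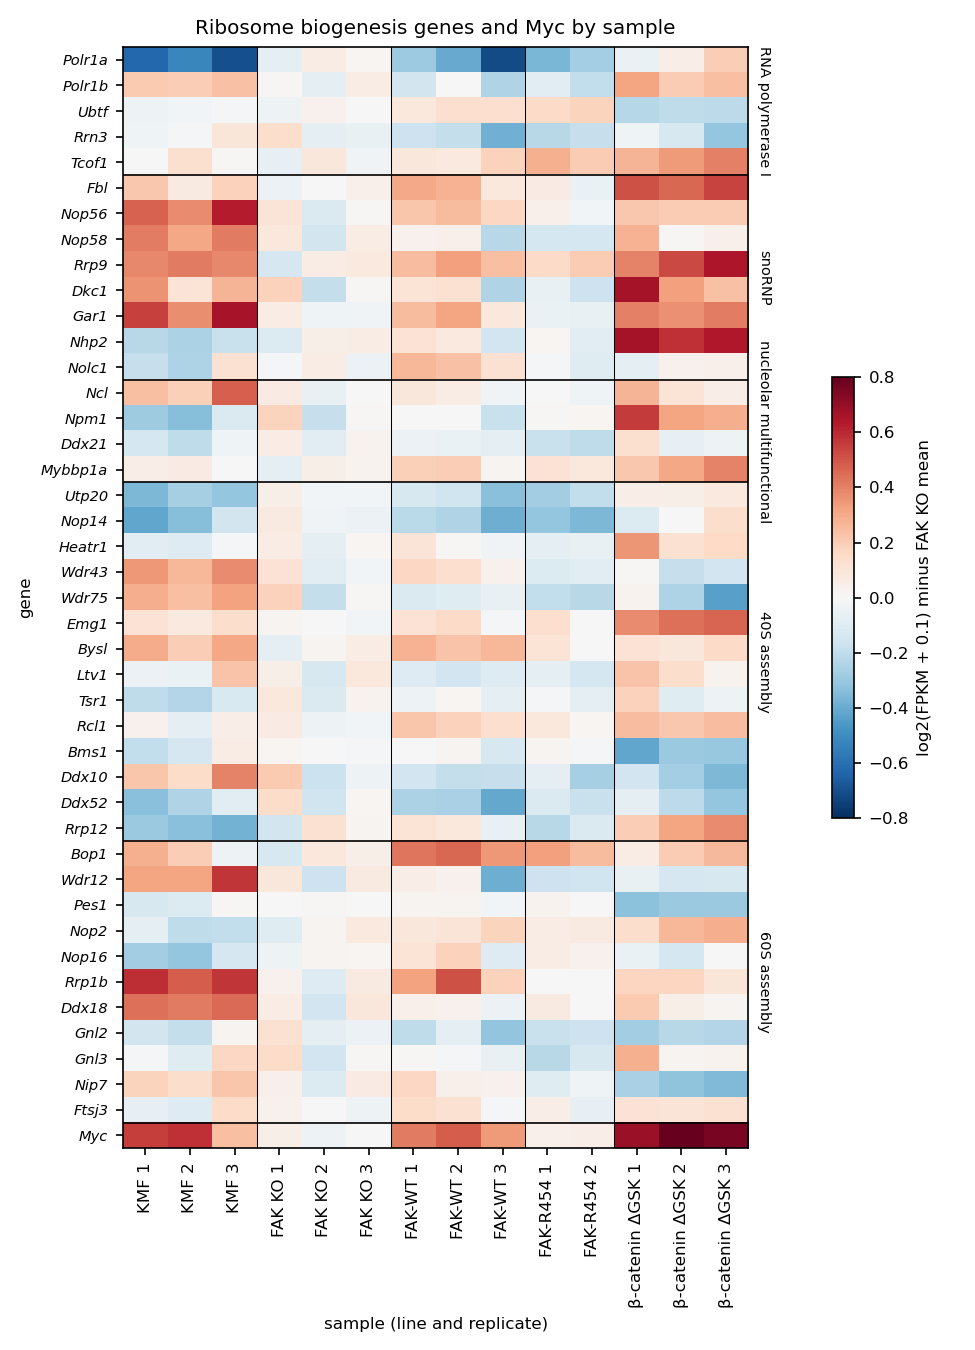
Level of each of the 42 genes and of Myc in each of the 14 samples, as log2(FPKM + 0.1) minus the mean of the FAK KO samples (red higher, blue lower, color scale limited to 0.8 either way). Rows are grouped by role and columns by line, and the red block of snoRNP genes in β-catenin ΔGSK samples and the mixed colors of the other rows are to be seen.

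Myc itself read 53.9, 55.3 and 43.5 FPKM in KMF, 38.0, 35.7 and 36.7 in FAK KO, 49.2, 51.6 and 46.7 in FAK-WT, 37.8 and 38.2 in FAK-R454 samples and 59.4, 66.7 and 62.2 in the β-catenin ΔGSK samples. FAK KO and FAK-R454 samples were low and close to each other, and every sample of the other lines lay above them. Against FAK KO, Myc changed by 0.77 in β-catenin ΔGSK, 0.46 in KMF and 0.42 in FAK-WT cells on the log2 scale, all called higher, and its value in FAK-R454 cells was 0.05 (SE 0.06, limma adjusted p = 0.617). Myc lies on chromosome 15, and between FAK-WT and FAK KO cells the genes of that chromosome differed by a median of 0.30, against -0.09 on the other chromosomes. With each chromosome centred on its median, Myc differed by 0.040 between these lines. The part of the chromosome in the Myc difference was not tested.

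The members did not, as a group, follow the order of Myc over the lines. The 5 line means of Myc rise from FAK KO through FAK-R454, FAK-WT and KMF to β-catenin ΔGSK cells, and 2 of the 42 members had this order, Emg1 and Rrp9, as did 2.17% of all 12256 genes expressed. In 8 members the FAK KO and FAK-R454 means were both below those of the other 3 lines (Bysl, Emg1, Fbl, Gar1, Ncl, Nop56, Rrp1b and Rrp9), which is 19% of the members against 8.66% of all genes. The highest mean was that of β-catenin ΔGSK cells in 21 members, 50% against 25.9% of all genes, that of KMF cells in 13 (31% against 25%), and that of FAK KO cells in 2 (4.76% against 26.7%). It was that of FAK-WT or FAK-R454 cells in 3 members each (7.14% against 11.3% and 11%). The lowest mean was that of FAK-R454 cells in 12 members, 28.6% against 8.09% of all genes, that of FAK KO cells in 10 (23.8% against 16.2%) and that of KMF cells in 10 (23.8% against 22.8%). It was that of β-catenin ΔGSK cells in 7 members (16.7% against 35.1%) and of FAK-WT cells in 3 (7.14% against 17.8%). Many neighbouring means in these orders do not differ beyond the spread of the samples, so the orders are a description.

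The comparisons with FAK KO cells all use the same 3 FAK KO samples, so they are not independent of each other. Calls, in either direction and at any fold, rest on a limma p under 0.05 after adjustment over all genes tested. In β-catenin ΔGSK cells 14 members were called higher and 5 lower, where 23.7% of all 11915 genes tested were called higher and 34.4% lower. In KMF cells 12 members were called higher and 6 lower, against 23.1% and 28.7% of all genes. In FAK-WT cells 9 were called higher and 3 lower, against 15.6% and 25.2%. In FAK-R454 cells 1 was called higher and 2 lower, against 9.78% and 9.89%. As shares of the 42 members, those called higher were 33.3% in β-catenin ΔGSK, 28.6% in KMF, 21.4% in FAK-WT and 2.38% in FAK-R454 cells. The first 3 shares lie at most 10 percentage points above the background, and the last below it. The median log2 fold change over the members was 0.11 in β-catenin ΔGSK, 0.03 in KMF, 0.02 in FAK-WT and -0.05 in FAK-R454 cells, beside medians over all genes of -0.09, -0.05, -0.08 and -0.03. The changes ran from -0.62 to 0.63 on the log2 scale. Without any test, every sample was above every FAK KO sample in 18 members and below in 5 in β-catenin ΔGSK cells, where this held for 26.9% and 37.3% of all genes. The counts were 15 and 7 in KMF (27.4% and 33.4%), 11 and 6 in FAK-WT (20.8% and 35.3%) and 6 and 9 in FAK-R454 cells (25.4% and 29.6%). Scaling the libraries by median-of-ratios gave 20 higher and 3 lower members in β-catenin ΔGSK, 17 and 5 in KMF, and 11 and 2 in FAK-WT cells, where 28.9% and 28.2%, 26.2% and 25.4%, and 20.3% and 17.3% of all genes were then called higher and lower, and it moved the median of all genes to between -0.01 and 0.00. Single samples weighed on the smaller counts. In FAK-WT cells the 9 members called higher became 5, 4 and 3 without FAK KO samples 1, 2 and 3, and 2 and 1 without FAK-WT samples 1 and 2, while the share of all genes called higher was 11.7%, 16.2%, 10.1%, 12.3% and 10.6%, and the 3 called lower were between 2 and 4. In KMF cells the 6 called lower became 3 without KMF sample 1 or 2, where 21.9% and 22.7% of all genes were called lower, and 10 without KMF sample 3, where 28.9% were. With either FAK-R454 sample left out, 1 remains and the spread comes from the other line alone. Calls lost in such fits, here and below, do not show whether a call is stable. In FAK-R454 cells 3 members were called higher and 7 lower without FAK KO sample 2, against 16.3% and 20.8% of all genes, and 0 and 1 without FAK KO sample 3, against 5.87% and 4.1%. In β-catenin ΔGSK cells between 10 and 13 were called higher, against 19.8% to 24.8% of all genes, and 3 were called lower without FAK KO sample 3, against 27.8%. With each sample left out in turn, 11 of the 19 members called in β-catenin ΔGSK cells were called each time (Nhp2, Rrp9, Fbl, Emg1, Gar1, Npm1, Tcof1, Mybbp1a and Polr1b higher, Bms1 and Pes1 lower). The same held for 10 of 18 in KMF cells (Rrp1b, Gar1, Nop56, Ddx18, Rrp9, Nop58 and Wdr43 higher, Polr1a, Rrp12 and Utp20 lower) and for 3 of 12 in FAK-WT cells (Bop1 higher, Polr1a and Nop14 lower). The other calls of members against FAK KO in these lines were each lost on leaving out at least 1 sample.

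**Figure D2:**
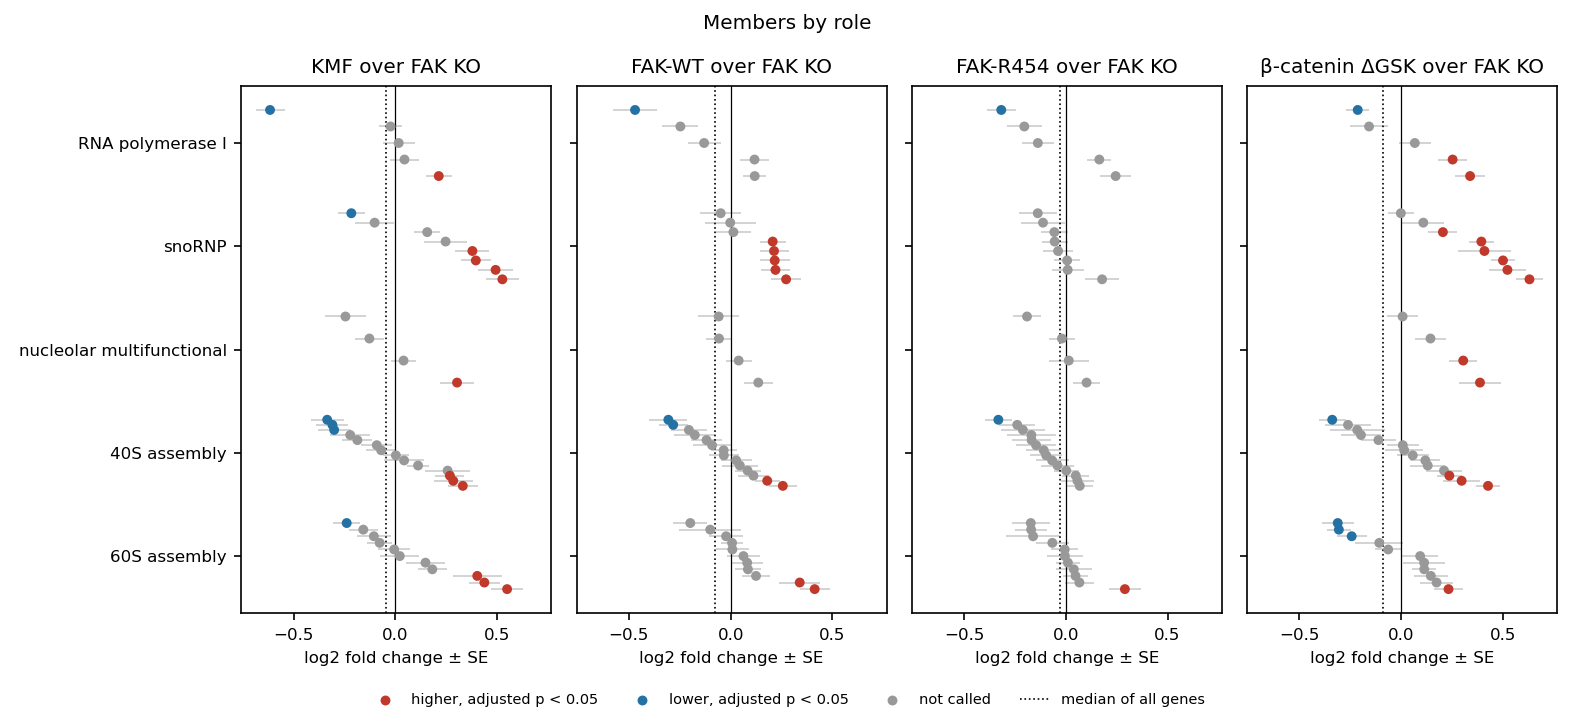
Log2 fold change over FAK KO cells of each of the 42 genes (points, with bars of 1 standard error), in 4 panels by line and in rows by role, with genes of an adjusted p under 0.05 in red (higher) or blue (lower) and a dotted line at the median of all genes tested. The snoRNP genes are the row that lies furthest to the right in β-catenin ΔGSK cells, with 6 of 8 called higher, and the assembly factors spread to both sides of 0 in every panel.

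Of the 5 roles, the snoRNP genes had the largest share of higher calls in β-catenin ΔGSK, FAK-WT and KMF cells. Against FAK KO, 6 of the 8 were called higher in the β-catenin ΔGSK line (median log2 fold change 0.40), 5 in FAK-WT cells (median 0.21), 4 in KMF cells (median 0.31, with 1 called lower) and 0 in FAK-R454 cells (median -0.05). Of all genes, 23.7%, 15.6%, 23.1% and 9.78% were called higher in these comparisons, in the same order. In FAK-R454 cells none of the 8 had an unadjusted limma p under 0.05. Leaving out any one sample left between 4 and 6 called higher in β-catenin ΔGSK cells and 4 or 5 in KMF cells. In FAK-WT cells it left 2 without FAK KO sample 1 or 2, 1 without FAK KO sample 3 or FAK-WT sample 1, and 0 without FAK-WT sample 2. The 5 were also 2 with no filter on low values, 1 without the trended prior, 1 with the replicate number as a block and 3 with each chromosome centred on its median. Of all genes, 8.31%, 14.2%, 14.7% and 12.3% were called higher in these fits, in the same order. Nhp2 (chr11:51619735-51623714, plus strand, mm10, with positions as the deposited table gives them) showed the largest change of any member. Its FPKM was 178, 168 and 175 in β-catenin ΔGSK samples, 104, 116 and 117 in FAK KO, 96.1, 94.0 and 98.7 in KMF, 121, 118 and 101 in FAK-WT and 113 and 105 in FAK-R454 samples. All β-catenin ΔGSK samples lay above all other samples, and all KMF samples lay below all FAK KO samples. The log2 fold change over FAK KO was 0.63 (SE 0.07, limma adjusted p = 6.59e-05) in β-catenin ΔGSK and -0.22 (SE 0.07, limma adjusted p = 0.0242) in KMF cells. In KMF cells the call of Nhp2 was lost when either of KMF samples 1 and 2 or of FAK KO samples 2 and 3 was left out.

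Rrp9 (chr9:106475963-106485424), a protein of the snoRNP that directs cleavage of the ribosomal RNA precursor, was high in 3 lines. It read 26.8, 29.3 and 31.9 FPKM in β-catenin ΔGSK, 26.6, 27.2 and 26.6 in KMF, 24.1, 25.6 and 24.1 in FAK-WT, 22.6 and 23.4 in FAK-R454 samples and 18.5, 21.2 and 21.4 in FAK KO samples. No sample of another line fell into the range of FAK KO. Over FAK KO the log2 fold change was 0.52 (SE 0.09, limma adjusted p = 0.00114) in β-catenin ΔGSK, 0.40 (SE 0.07, limma adjusted p = 0.00222) in KMF, 0.27 (SE 0.07, limma adjusted p = 0.0208) in FAK-WT and 0.18 (SE 0.08, limma adjusted p = 0.157) in FAK-R454 cells. Without FAK-WT sample 2 the adjusted p in FAK-WT cells was 0.0837. Rrp9 shares 987 bases with Parp3 on the opposite strand, and the library kit does not mark strand, so fragments of the shared part cannot be assigned.

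Fbl (chr7:28169748-28179269), fibrillarin, is the methyltransferase of the box C/D snoRNPs, and Nop56 and Nop58 are the core proteins that hold it. Fbl was 132, 127 and 135 FPKM in β-catenin ΔGSK samples, above the 108, 97.3 and 105 of KMF, the 114, 112 and 98.1 of FAK-WT, the 97.0 and 89.2 of FAK-R454 and the 89.8, 92.9 and 95.3 of FAK KO. Its log2 fold change over FAK KO was 0.50 (SE 0.06, limma adjusted p = 1.16e-04) in β-catenin ΔGSK and 0.22 (SE 0.07, limma adjusted p = 0.0413) in FAK-WT cells, and the call in FAK-WT was lost on leaving out any one sample other than FAK-WT sample 3. Nop56 was instead highest in KMF, at 39.9, 37.3 and 44.4 FPKM against 30.9, 26.5 and 28.9 in FAK KO, with log2 fold changes of 0.49 (SE 0.09, limma adjusted p = 0.00164) in KMF, 0.21 in FAK-WT and 0.21 in the β-catenin ΔGSK line, all called higher. Nop58 was 9.93, 9.29 and 9.99 FPKM in KMF and 7.91, 6.74 and 7.79 in FAK KO, and it was called higher in KMF cells, by 0.38, and in no other line.

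Dkc1, Gar1 and Nhp2 form the H/ACA snoRNPs, in which Dkc1 is the pseudouridine synthase. Dkc1 (chrX:75095854-75109777) was 21.6, 17.1 and 15.9 FPKM in β-catenin ΔGSK and 15.4, 11.9 and 13.7 in FAK KO samples. The samples did not overlap, though the lowest of the first and the highest of the second were close, and the log2 fold change was 0.41 (SE 0.13, limma adjusted p = 0.0253). Leaving out FAK KO sample 2 or 3, or β-catenin ΔGSK sample 1, ended this call. Gar1 was 45.5, 40.2 and 49.2 FPKM in KMF, 41.2, 40.1 and 41.4 in β-catenin ΔGSK, 37.0, 38.7 and 32.9 in FAK-WT, 30 and 29.8 in FAK-R454 samples and 32.4, 30.4 and 30.5 in FAK KO samples. All samples of the first 3 lines lay above all of the last 2, and the log2 fold change over FAK KO was 0.53 (SE 0.08, limma adjusted p = 9.14e-04) in KMF and 0.39 (SE 0.06, limma adjusted p = 6.28e-04) in β-catenin ΔGSK cells. In KMF cells Gar1 was thus higher and Nhp2, of the same particle, lower. Nolc1, which shuttles and assembles snoRNPs, was called higher only in FAK-WT cells among the lines compared with FAK KO, at 50.8, 49.6 and 45.9 FPKM against 41.8, 44.0 and 40.9 and by 0.21 (SE 0.06, limma adjusted p = 0.0336).

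**Figure D3:**
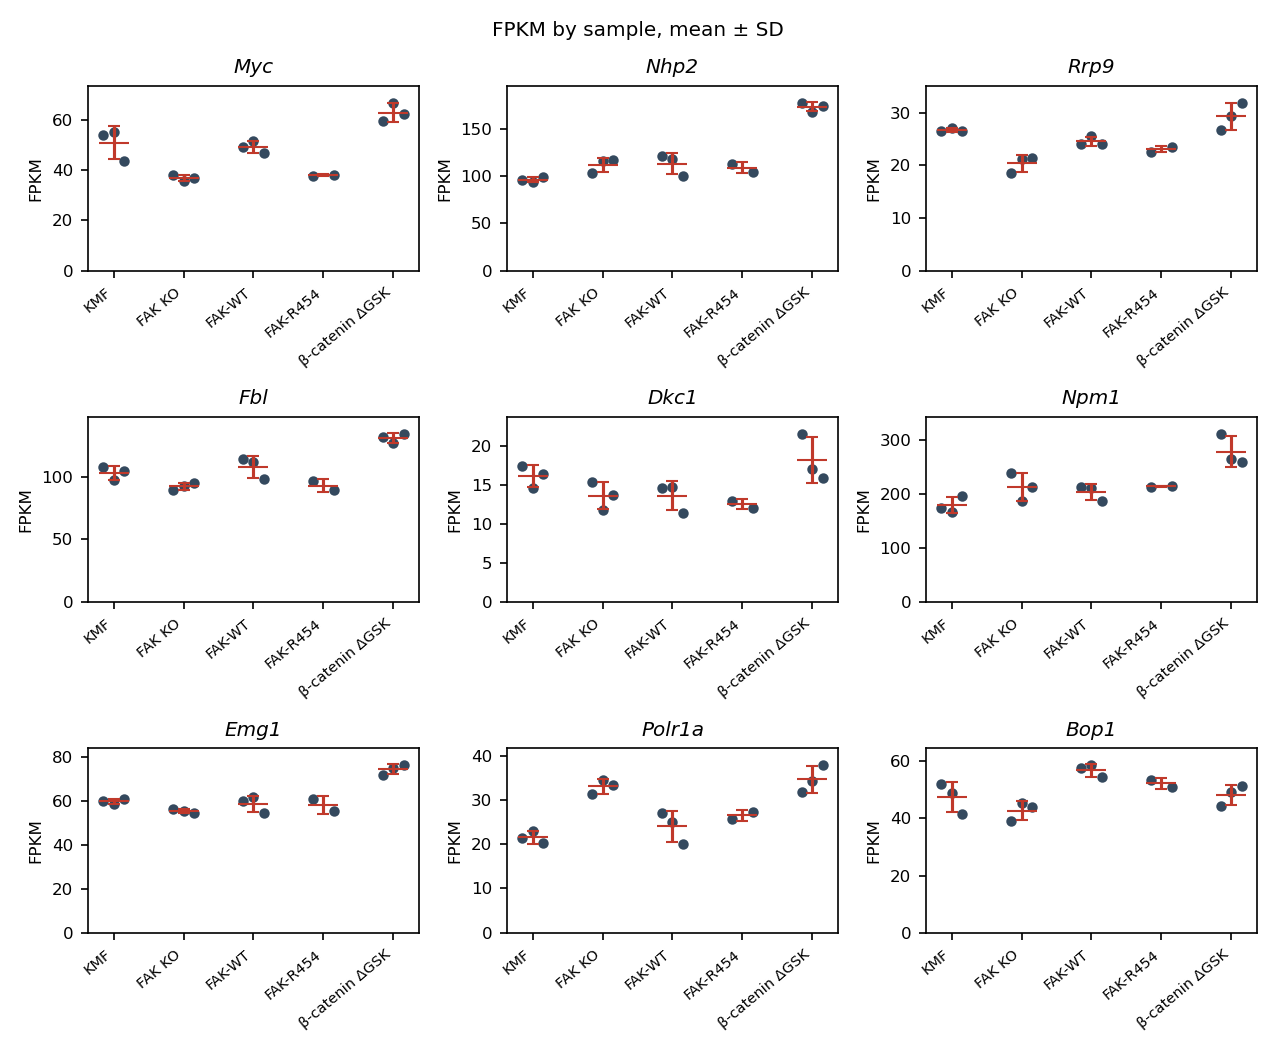
FPKM of Myc and of 8 members in each sample (points) of the 5 lines, with the mean and SD of each line in red (3 samples, 2 for FAK-R454), each panel on its own axis from 0. The 8 were picked by hand and do not stand for all members. All but Polr1a and Bop1 were called higher in β-catenin ΔGSK than in FAK KO cells. None of the 5 members called lower there is shown. Nhp2, Fbl and Emg1 separate β-catenin ΔGSK from all other samples, and Polr1a is lower in KMF, FAK-WT and FAK-R454 samples than in FAK KO.

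Of the 5 RNA polymerase I genes, 1 was called higher and 1 lower in KMF than in FAK KO cells, against 23.1% and 28.7% of all genes. In β-catenin ΔGSK cells the counts were 2 and 1, against 23.7% and 34.4%. They were 0 and 1 in FAK-WT (15.6% and 25.2%) and 0 and 1 in FAK-R454 cells (9.78% and 9.89%). Polr1a (chr6:71909053-71979356), the largest subunit of the enzyme, was 31.3, 34.5 and 33.4 FPKM in FAK KO and 31.9, 34.3 and 37.9 in β-catenin ΔGSK samples. It was 21.4, 23.0 and 20.2 in KMF, 27.0, 24.9 and 20.05 in FAK-WT and 25.6 and 27.3 in FAK-R454 samples, all below every FAK KO sample. The log2 fold change over FAK KO was 0.07 (SE 0.08, limma adjusted p = 0.489) in β-catenin ΔGSK, -0.62 (SE 0.07, limma adjusted p = 1.83e-04) in KMF, -0.47 (SE 0.11, limma adjusted p = 0.0104) in FAK-WT and -0.32 (SE 0.07, limma adjusted p = 0.0183) in FAK-R454 cells. The fall in KMF cells was the largest of any member in the comparisons with FAK KO. Polr1b, the other large subunit, was called higher in KMF (0.21) and β-catenin ΔGSK cells (0.25), at 13.3, 13.2 and 13.5 and 14.3, 13.3 and 13.6 FPKM against 11.6, 10.96 and 12.03 in FAK KO. Ubtf, which binds the ribosomal DNA, was 70.7, 74.3 and 72.9 FPKM in FAK KO and 61.9, 63.2 and 62.8 in β-catenin ΔGSK samples, a log2 fold change of -0.21 (SE 0.06, limma adjusted p = 0.0105), which was not called without FAK KO sample 3. Tcof1, treacle, was 15.8, 17.7 and 16.3 FPKM in FAK KO and 20.03, 21.1 and 22.0 in β-catenin ΔGSK samples, a log2 fold change of 0.34 (SE 0.07, limma adjusted p = 0.00410). Rrn3, the initiation factor that recruits the enzyme, was called in none of the comparisons with FAK KO.

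Among the 4 nucleolar proteins with several roles, Npm1 (chr11:33152287-33163206), nucleophosmin, a chaperone of assembly, was the most abundant member. Its FPKM was 311, 264 and 258 in β-catenin ΔGSK, 239, 186 and 213 in FAK KO, 212, 211 and 187 in FAK-WT, 213 and 214 in FAK-R454 samples and 174, 167 and 195 in KMF samples. The FAK KO samples were spread widely and did not reach those of β-catenin ΔGSK, and the log2 fold change was 0.39 (SE 0.11, limma adjusted p = 0.0123). Mybbp1a, a nucleolar partner of Myb whose promoter window is shown above, was 68.2, 72.8 and 77.4 FPKM in β-catenin ΔGSK and 55.9, 60.7 and 60.02 in FAK KO samples, a log2 fold change of 0.31 (SE 0.07, limma adjusted p = 0.00520). Ncl, nucleolin, was 81.7, 78.8 and 96.0 FPKM in KMF and 72.2, 66.2 and 68.8 in FAK KO samples, and it was called higher in KMF cells alone of the lines compared with FAK KO, by 0.30 (SE 0.08, limma adjusted p = 0.0157). Ddx21, an RNA helicase of the nucleolus, was called in none of these comparisons, with log2 fold changes from -0.19 to 0.01.

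The 14 genes of small subunit assembly had medians near 0 in all comparisons, from -0.10 in FAK-R454 to 0.04 in β-catenin ΔGSK cells. In β-catenin ΔGSK cells 3 were called higher and 1 lower, against 23.7% and 34.4% of all genes. Emg1 (chr6:124704381-124712178), a methyltransferase of the small subunit RNA, was 71.7, 75.0 and 76.3 FPKM there, above every other sample, against 56.2, 55.1 and 54.4 in FAK KO, a log2 fold change of 0.43 (SE 0.06, limma adjusted p = 2.92e-04). Rcl1, a processing factor, and Rrp12, an export factor, were called higher by 0.24 and 0.30. Bms1, a GTPase that binds Rcl1, was called lower, with 15.5, 16.8 and 16.7 FPKM against 20.9, 20.6 and 20.5 and -0.34 (SE 0.07, limma adjusted p = 0.00238). In KMF cells Wdr43, Wdr75 and Bysl were called higher and Utp20, Nop14 and Rrp12 lower, with log2 fold changes from -0.34 to 0.33. Rrp12 was thus called in opposite directions in KMF and β-catenin ΔGSK cells. Nop14 was called lower in 3 lines, at 32.3, 30.2 and 29.8 FPKM in FAK KO, 23.0, 24.3 and 27.8 in KMF, 26.5, 26.0 and 23.4 in FAK-WT and 24.8 and 24.0 in FAK-R454 samples, with log2 fold changes of -0.30, -0.28 and -0.33. It was not called in β-catenin ΔGSK cells, where it read 28.5, 30.7 and 33.9 FPKM. In FAK-WT cells Bysl and Rcl1 were called higher and Ddx52, a helicase, lower (-0.31). Heatr1, Emg1, Ltv1, Tsr1, Bms1 and Ddx10 were called in neither KMF, FAK-WT nor FAK-R454 cells against FAK KO.

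Of the 11 genes of large subunit assembly, 3 form the PeBoW complex (Pes1, Bop1 and Wdr12), and they differed from each other. Bop1 (chr15:76452996-76477269) was 57.6, 58.8 and 54.4 FPKM in FAK-WT and 53.6 and 50.9 in FAK-R454 samples, all above the 39.0, 45.3 and 44.1 of FAK KO, while KMF (51.9, 49.0 and 41.6) and β-catenin ΔGSK samples (44.4, 49.2 and 51.2) overlapped those of FAK KO. Its log2 fold change over FAK KO was 0.41 (SE 0.07, limma adjusted p = 0.00369) in FAK-WT and 0.29 (SE 0.08, limma adjusted p = 0.0375) in FAK-R454 cells. In FAK-R454 cells the call was lost without FAK KO sample 3. Bop1 shares 2031 bases with Scx on the opposite strand, one of 11 members that overlap an expressed gene (mean FPKM above 1) of the other strand. Pes1 was 27.8, 28.4 and 28.5 FPKM in β-catenin ΔGSK and 34.9, 35.1 and 34.8 in FAK KO samples, and was called lower, with a log2 fold change of -0.31 (SE 0.06, limma adjusted p = 0.00189). Wdr12 was 3.08, 3.08 and 3.70 FPKM in KMF and 2.62, 2.18 and 2.58 in FAK KO samples, and was called higher, by 0.40 (SE 0.12, limma adjusted p = 0.0214). Rrp1b, a nucleolar protein, was 8.74, 8.13 and 8.65 FPKM in KMF, 7.24, 8.29 and 6.58 in FAK-WT and 5.91, 5.38 and 6.07 in FAK KO samples, with log2 fold changes of 0.55 (SE 0.08, limma adjusted p = 5.57e-04) in KMF and 0.34 (SE 0.10, limma adjusted p = 0.0276) in FAK-WT cells. Ddx18, a helicase, was higher in KMF cells by 0.44, and Nop16 was lower (-0.24). In β-catenin ΔGSK cells Nop2, a methyltransferase of the large subunit RNA, was called higher (0.23), and the GTPase Gnl2 (-0.24) and Nip7 (-0.31) were called lower. Gnl3, nucleostemin, and Ftsj3 were called in no comparison.

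FAK-WT and FAK-R454 cells, which carry the active and the kinase-inactive GFP-FAK, were compared directly. They also differed in the level of Ptk2 (means of 43.4 and 62.4 FPKM) and in the epithelial markers given above, and the part of these in the values was not tested. No member was called higher and none lower with limma, where 3.38% and 4.44% of all 11782 genes were. In the Myc and Max network 1 gene of 12 tested was called higher and 0 lower, and Myc had its largest log2 fold change, 0.37. At an unadjusted p under 0.05, 11 members were higher and 0 lower. The share of all genes at that threshold was not computed, so these counts have no background. Limma-voom on recovered fragments called 1 higher and 0 lower, against 3.6% and 5.7% of all genes. Of the 42 log2 fold changes 30 were above 0, with a median of 0.06 over all members and 0.16 over the snoRNP genes, against -0.05 over all genes. In 17 members every FAK-WT sample was above both FAK-R454 samples, where this held for 16.7% of all genes tested, and in 4 every FAK-WT sample was below both, where this held for 31.8%. Gar1, for example, was 0.27 (SE 0.08, limma adjusted p = 0.0877), Nop56 0.20 (SE 0.05, limma adjusted p = 0.0690) and Rrp1b 0.34 (SE 0.10, limma adjusted p = 0.103). FAK-WT sample 3 had the lowest summed FPKM of members in its line (1348), and without it 13 members were called higher and 1 lower, against 12.8% and 15.3% of all genes. With median-of-ratios scaling 4 were called higher and 0 lower, against 4.57% and 3.35%.

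FAK-WT cells were also compared with the parental KMF cells, from which they differ by having passed through 1 clone as well as by the source of FAK. Of the 42 members, 7 were called higher and 11 lower in FAK-WT, where 18.2% and 23.5% of all genes were. Wdr12 (-0.50), Nop58 (-0.43), Ddx10 (-0.43) and Ddx18 (-0.43) were among those lower in FAK-WT, and Rrp12 (0.38), Nolc1 (0.31) and Nop16 (0.30) among those higher. All FAK-WT samples were above all KMF samples in 9 members and below in 13, against 23.9% and 31.6% of all genes. With median-of-ratios scaling 10 were called higher and 10 lower, against 21.8% and 21% of all genes. Without FAK-WT sample 1 or 2 or KMF sample 2 the count of higher members was 2, against 12.8% to 14.5% of all genes. Without KMF sample 1 it was 3 with 5 lower, against 13.7% and 17%. With each sample left out in turn, 7 of the 18 were called each time (Ddx10, Ddx18, Nop58, Polr1b and Wdr75 lower, Nop2 and Rrp12 higher). With each chromosome centred on its median, 0 were called higher and 2 lower, against 13.4% and 18.1% of all genes.

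Some of these differences ran with the chromosome on which a member lies. All 5 members on chromosome 1 (Nop58, Ncl, Wdr75, Wdr12 and Ddx18) were called higher in KMF than in FAK KO cells, and the median log2 fold change of all genes of that chromosome was 0.19, against -0.06 on the other chromosomes. The same comparison gave 0.21 for chromosome 17, with Wdr43, Bysl and Rrp1b, and 0.21 for chromosome 3, with Gar1. It gave -0.34 for chromosome 6, where Polr1a lies, and -0.26 for chromosome 19, where Rrp12 lies. Polr1b and Nop56, both called higher, lie on chromosome 2, whose median was -0.09. With each chromosome centred, Polr1a (-0.35, limma adjusted p = 0.00580), Gar1 (0.25, limma adjusted p = 0.0345) and Rrp1b (0.31, limma adjusted p = 0.0151) were still called in KMF cells, as were Polr1b, Nop56, Rrp9, Utp20 and Ddx18, and the other 10 calls were lost. In all 10 members were then called higher in KMF cells, 6 of them among the 12 called higher without centring, and 18.7% of all genes were. In FAK-WT over FAK KO cells the median was 0.30 on chromosome 15, where Bop1 lies, and 0.16 on chromosome 17. With chromosomes centred, the log2 fold change of Bop1 there was 0.037 (limma adjusted p = 0.662) and that of Rrp1b 0.16 (limma adjusted p = 0.290). The calls of Fbl, Nolc1, Bysl and Rcl1 were lost as well, so that 3 of the 9 higher calls remained, and the snoRNP genes called higher became 3, where 12.3% of all genes were. In β-catenin ΔGSK over FAK KO cells 2 members called higher lay on chromosomes with low medians, Dkc1 at 0.41 on the X chromosome (median -0.30) and Tcof1 at 0.34 on chromosome 18 (median -0.38). There, with chromosomes centred, 14 members were called higher and 5 lower, against 23.8% and 34% of all genes, with 12 of the 14 among those called without centring. Nop56 (0.18, limma adjusted p = 0.0614), Npm1 (0.24, limma adjusted p = 0.118) and Gnl2 (-0.18, limma adjusted p = 0.0708) kept their direction but were no longer called. Of the 70 calls of members over the 6 comparisons, 33 kept their direction and their side of the threshold under this centring. The part of chromosome copies in the differences was not tested.

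**Figure D4:**
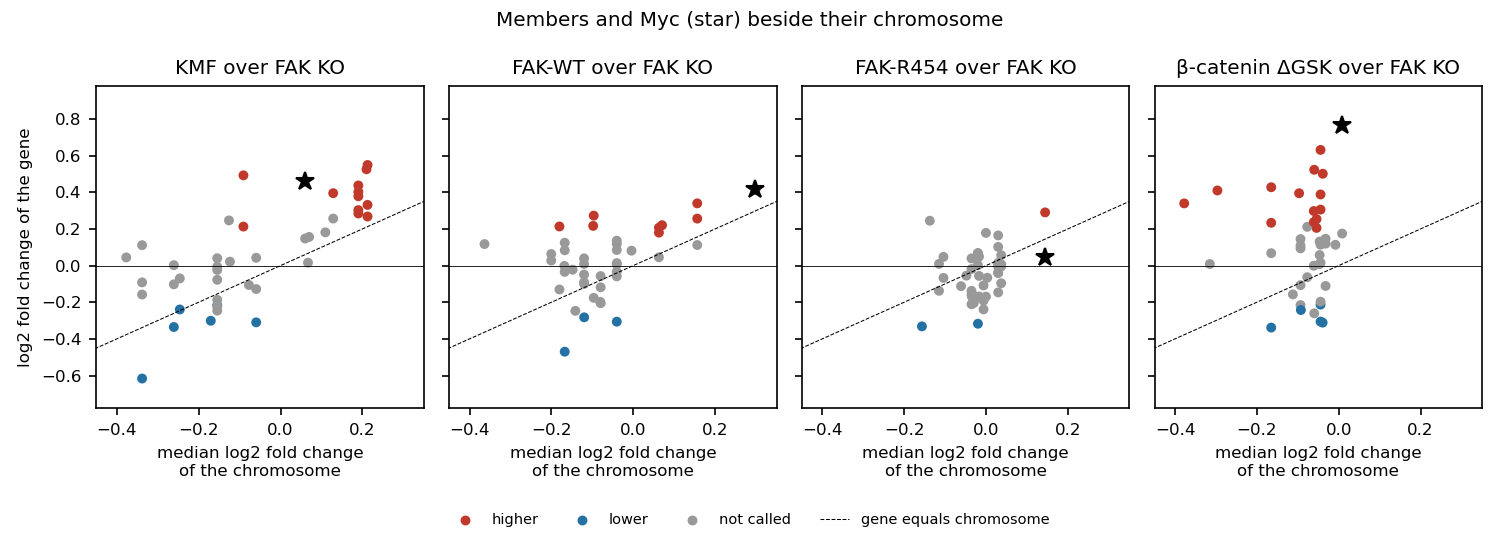
Log2 fold change over FAK KO cells of each of the 42 genes (red called higher, blue called lower, grey not called) and of Myc (star) against the median log2 fold change of all genes tested on its chromosome, in 4 panels by line, with a dashed line where both are equal. In KMF cells the genes called higher lie mostly at chromosome medians near 0.2, and in β-catenin ΔGSK cells they lie at medians at or below 0.

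Other genes of the pathway, from lists of which no gene is a member, are given mainly for β-catenin ΔGSK against FAK KO cells, where 23.7% of all genes were called higher and 34.4% lower. Of 77 cytosolic ribosomal protein genes tested, which encode the proteins of the finished particle, 71 were called higher in β-catenin ΔGSK than in FAK KO cells and 0 lower, with a median log2 fold change of 0.44, and between 66 and 70 were higher with any one sample left out. They took between 5.71 and 5.90% of the fragments in β-catenin ΔGSK, 4.16 to 4.47% in FAK KO, 4.64 to 5.53% in KMF, 4.47 to 4.99% in FAK-WT and 4.45 to 4.66% in FAK-R454 samples. In the other lines the background of higher calls was 23.1% for KMF, 15.6% for FAK-WT and 9.78% for FAK-R454 cells. In KMF cells 26 were called higher (15 without FAK KO sample 3) and 2 lower (12 without KMF sample 3). In FAK-WT cells 23 were called higher (between 7 and 37 with any one sample left out) and in FAK-R454 cells 5 (between 2 and 22). Rpl35 and Rps2 rose most in β-catenin ΔGSK cells, by 1.13 and 0.84. Fragments of ribosomal protein genes can be shared with their many processed copies, which makes these values uncertain. The other lists held smaller shares of calls in β-catenin ΔGSK cells. Of 10 other snoRNP genes 4 were called higher and 0 lower, with Ruvbl2, an ATPase of snoRNP assembly, at 0.48. Of 37 other small subunit assembly genes tested 4 were called higher, with Nob1, the nuclease of the last small subunit cleavage, at 0.62, and 7 lower, with the kinase gene Riok3 at -0.89. Of 47 other large subunit assembly genes 7 were called higher, with Pelp1 at 0.61, and 10 lower, with Sbds, which releases an anti-association factor from the large subunit, at -0.64. Of 16 further RNA polymerase I genes 3 were called higher and 3 lower, of 18 RNA polymerase III genes 3 and 5, and of 13 exosome genes 1 and 3. Apart from the other snoRNP genes, the shares of these lists called higher were below the 23.7% of all genes. Leaving out one sample moved some of these small counts, among them the other snoRNP genes called higher to 2 without β-catenin ΔGSK sample 2, and the large subunit genes called higher to 3 without FAK KO sample 3 and 4 without β-catenin ΔGSK sample 3. Of 38 Myc targets that act outside the nucleolus, 18 were called higher in the β-catenin ΔGSK line (between 14 and 17 with any one sample left out), led by the glycolytic enzyme gene Hk2 at 1.36, and 3 lower. Higher and lower calls of these targets were 9 and 7 of 37 in KMF, 4 and 5 of 37 in FAK-WT, and 1 and 6 of 38 in FAK-R454 cells. With any one sample left out they were between 7 and 10 and between 5 and 10 in KMF, between 1 and 5 and between 3 and 10 in FAK-WT, and between 0 and 3 and between 1 and 12 in FAK-R454 cells. Of 12 p53 targets, some of which respond when the nucleolus is stressed, 5 were called lower, led by Sesn1 at -1.01, and 2 higher in the β-catenin ΔGSK line. The counts lower and higher were 6 and 0 in KMF, 6 and 1 in FAK-WT and 7 and 0 in FAK-R454 cells. Of all genes, 28.7%, 25.2% and 9.89% were called lower in these 3 comparisons. Leaving out 1 of the 2 FAK-R454 samples cannot show whether its 7 calls are stable. In the Myc and Max network, Mycn was called higher in KMF (1.34) and lower in β-catenin ΔGSK cells (-2.79), where Mxd1 and Mxd4 were also called lower. Mlxipl, a partner of the related Mlx, was 0.59 in β-catenin ΔGSK, -1.28 in KMF, -1.49 in FAK-WT and -1.33 in FAK-R454 cells against FAK KO, and all 4 values were called. Max was called in no comparison with FAK KO, and Mxd3, a Max partner that opposes Myc, was called higher in all 4. Its rises were 0.75 in KMF, 0.81 in FAK-WT, 0.83 in FAK-R454 samples and 1.60 in the β-catenin ΔGSK cells. Whether the Mxd3 call in FAK-R454 is stable cannot be shown by leaving out 1 of its 2 samples.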

How the data were processed

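RNA of tumorspheres was poly(A)-selected and sequenced as 150 bp paired ends. The processing notes of the submitters name CASAVA 1.8, STAR 2.5, DESeq2 and build mm10, and the study's methods name TopHat2, so the aligner is uncertain, and the strand setting of the counting is not given in the sources used here. The deposited values are FPKM, which the authors computed per gene from read counts, gene length and library size. Nearly all values, 99.88 to 99.98% of a library, gave whole fragments within 0.01, a tolerance set after the values had been seen, and these gave the depths of 25390558 to 35289859 fragments. No depth-based interval was computed from them.

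Log2(FPKM + 0.1) was compared between 2 lines at a time with limma 3.58.1 (trended prior, R 4.3.3) for genes with a mean FPKM above 1 in at least 1 of the lines, with Benjamini-Hochberg adjustment over all of them and a threshold of 0.05. Fold changes on this scale understate changes of low genes. On simulated data with the same group sizes, the test recovered 96.36% of genes changed by 0.5 on the log2 scale in FAK-WT over FAK KO and 92.16% in FAK-R454 over FAK KO. The simulated samples varied independently, with the same fixed dispersion for all genes and no shift shared by many genes of a sample. No change below 0.5 was simulated, while most calls of members were smaller. The recovery therefore does not show how many of such changes the test finds in these data. Alternatives were another pseudocount, filter, scaling and model, limma-voom on the recovered fragments, chromosome centring and leaving out each sample. Named genes were all members, Myc, Ptk2, the Myc and Max network, markers of cell types and genes that overlap a member. Of each other list, at most the 2 largest called rises and falls were named. The members and lists were chosen with earlier results of these data known. The study's methods call the KMF samples independent and place them at various cell passages, and they call the samples of the other lines replicates. For those lines the sources used here do not say whether the samples came from separate cultures. The p-values therefore measure the spread between these samples. The methods describe 3 FAK-R454 samples, of which 2 were analysed here. Promoter sequences came from RefSeq (GRCm38.p6), and gene positions from the deposited table. RNA preparation with a kit that does not mark strand leaves overlapping genes unresolved.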

Additional observations from a re-analysis of the deposited data

How the results depend on the processing

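The differences are small and each line has 2 or 3 samples, so a member that was not called is not shown to be equal. Members called higher and lower were counted with 1 sample left out at a time, with the shares of all genes in brackets. In KMF over FAK KO they were 9 to 14 and 3 to 10 (18 to 23.7% and 21.7 to 29.1%). They were 1 to 10 and 2 to 4 in FAK-WT over FAK KO (10.1 to 16.7% and 13 to 27.4%). In β-catenin ΔGSK over FAK KO they were 10 to 13 and 3 to 7 (19.8 to 24.8% and 27.8 to 36.4%). In FAK-WT over KMF they were 2 to 10 and 5 to 9 (12.8 to 19.8% and 17 to 23.5%). With only FAK KO samples left out, they were 0 to 3 and 1 to 7 in FAK-R454 over FAK KO (5.87 to 16.3% and 4.1 to 20.8%). With only FAK-WT samples left out, they were 0 to 13 and 0 to 1 in FAK-WT over FAK-R454 (0.543 to 12.8% and 0.789 to 15.3%). With any 1 sample of either line left out, the value of Myc in FAK-WT over FAK-R454 was 0.33 to 0.41.

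With a log2 fold of at least 0.5 required as well, 2 members were called higher and 1 lower in KMF, 0 and 0 in FAK-WT, 0 and 0 in FAK-R454 and 3 and 0 in β-catenin ΔGSK over FAK KO, and 0 and 1 in FAK-WT over KMF. With a fold of at least 1 all these counts were 0. The shares of all genes at these folds were not computed, so these counts have no background. With no filter on low values, 4 members were called higher in FAK-WT and 0 in FAK-R454 over FAK KO (8.31% and 3.96% of all genes). In FAK-WT over KMF 3 were called higher (11.6%). The same 3 counts without the trended prior were 4, 0 and 3, against 14.2%, 7.56% and 17.5% of all genes. With 1 fit of 5 lines, 6 were called lower in FAK-WT over FAK KO, against 28% of all genes. That fit gave 2 higher and 1 lower in FAK-R454 over FAK KO (8.6% and 9.05%), and 1 higher in FAK-WT over FAK-R454 (3.64%). Median-of-ratios scaling gave 2 higher in FAK-R454 over FAK KO (10.8% of all genes) and 4 higher in FAK-WT over FAK-R454 (4.57%). In β-catenin ΔGSK over FAK KO it gave 3 lower (28.2%) and a median over members of 0.20. Limma-voom gave 2 higher in FAK-R454 over FAK KO (11.6% of all genes) and 1 higher in FAK-WT over FAK-R454 (3.6%).

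With the replicate number as a block, 4 members were called higher in FAK-WT over FAK KO (14.7% of all genes). In FAK-R454 over FAK KO 0 were called higher and 1 lower (8.06% and 7.32%). The block gave 17 higher and 9 lower in β-catenin ΔGSK over FAK KO (27.9% and 40.5%). It gave 14 higher and 1 lower in FAK-WT over FAK-R454 (13.3% and 15.5%), and 3 higher and 6 lower in FAK-WT over KMF (16.7% and 21.5%). The labels do not say that a number marks a shared batch, and in no comparison did the deviations of every pair correlate by more than 0.1 (the 3 pairs gave 0.45, 0.28 and 0.076 in β-catenin ΔGSK over FAK KO and 0.023, 0.030 and 0.13 in FAK-WT over KMF, and the other comparisons each had a pair below 0), so the block is not read as a pairing. FAK-R454 has no sample 3, so in its comparisons the block also takes sample 3 of the other line out of the contrast, and the 14 and 1 stand beside 13 and 1 without FAK-WT sample 3.

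With each chromosome centred on its median in each sample, 2 members were called lower in KMF and 1 in FAK-R454 over FAK KO (24.1% and 9.22% of all genes). In FAK-WT over KMF 0 were called higher and 2 lower (13.4% and 18.1%). Myc was then 0.040 in FAK-WT over FAK KO, 0.17 in FAK-WT over FAK-R454 and -0.34 in FAK-WT over KMF. In FAK-WT over KMF 5 values changed sign, Gar1 to 0.0097, Nolc1 to -0.011, Ncl to 0.027, Rcl1 to -0.14 and Bop1 to -0.029. Another centring, on deviations from the mean of each gene, was chosen after the values had been seen. It gave 2 lower in KMF (24% of all genes), 5 higher in FAK-WT (12.5%) and 1 lower in FAK-R454 over FAK KO (8.39%). In FAK-WT over KMF it gave 0 higher and 2 lower (13.9% and 17.3%). In the order given above, Myc was then 0.031, 0.17 and -0.31. Nolc1 was -0.015, Ncl 0.030 and Rcl1 -0.15 in FAK-WT over KMF. The cause of these changes was not tested. Of the calls of single members, 295 of 417 values with a sample left out and 566 of 698 under the other alternatives kept their direction and their side of the threshold.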
